A study of Flaveria angustifolia and Flaveria bidentis and Flaveria brownii with 21 samples.

Results

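The report covers 73 loci whose transcripts were more abundant in the leaves of the clade A species of Flaveria than in those of the 6 other species sequenced. Flaveria belongs to the daisy family and includes C3, C4 and intermediate species. The 73 were taken from the 11704 loci that averaged 5 RPM or more (RPM, reads per 1000000 assigned reads), out of 20551 loci in the deposited table. For each species log2(RPM + 1) was averaged over its libraries. A locus was a member when the lowest of F. palmeri, F. vaginata, F. kochiana, F. bidentis and F. trinervia exceeded the highest of the other species by at least 0.5 on that scale, with F. brownii counted among the others. The members were thus chosen by their RPM values in clade A and in the other species, and that difference is given as a description with no test.

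The series holds RNA sequencing of leaves from 11 Flaveria species in 18 libraries, with 1 library per species and leaf stage. Mature leaves were the newest fully expanded ones, and juvenile leaves had just begun to expand. Leaves of several plants from a greenhouse were combined in each library, so p-values measure the spread between species and not between plants. Clade A was represented by mature and juvenile leaves of F. bidentis and F. trinervia, mature leaves of F. kochiana, and juvenile leaves of F. palmeri and F. vaginata. The other species were F. brownii, F. pubescens, F. angustifolia, F. cronquistii and F. pringlei, each with mature and juvenile leaves, and F. sonorensis with juvenile leaves. As textbook background, F. bidentis, F. trinervia and F. kochiana are C4 species and F. palmeri and F. vaginata C4-like. F. brownii is also C4-like but lies outside clade A. F. pubescens, F. angustifolia and F. sonorensis are C3-C4 intermediates, and F. cronquistii and F. pringlei are C3. All 5 clade A species are C4 or C4-like, so descent and photosynthetic type cannot be told apart in them.

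In C4 leaves, mesophyll cells fix bicarbonate with phosphoenolpyruvate (PEP) carboxylase and pass C4 acids to the bundle sheath, where a decarboxylase releases CO2 beside Rubisco. Pyruvate returns to the mesophyll and is turned back into PEP. Flaveria uses NADP-malic enzyme as its main decarboxylase. The cycle needs carriers for pyruvate, PEP and dicarboxylates in the chloroplast envelope, and it uses additional ATP, a product of cyclic electron flow around photosystem I, in which the chloroplast NDH complex takes part.

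Libraries held 5.85 to 9.15 M assigned reads (M, 1000000 reads) in clade A, against 5.40 to 7.54 M in the other species. A value of 0 allows up to 0.328 to 0.556 RPM, the worth of 3 reads, which covers counting error only. The 11 leaf chloroplast markers, for the Rubisco small subunit, Rubisco activase, LHCB1 antenna proteins and PSBO1, were detected in every library. Their sum was 40966 to 85239 RPM in clade A, against 72004 to 157652 RPM in the other species. Rubisco works in the bundle sheath of C4 leaves, so the sum is no measure of mesophyll. The mature F. brownii library stood apart from the rest. Its 5 senescence markers summed to 929 RPM, of which SAG12 alone made 865 RPM. Its 5 xylem and secondary wall markers summed to 1270 RPM, of which XCP1 alone made 1125 RPM. Its 4 companion cell markers summed to 835 RPM. The highest of the other 17 libraries reached 227, 385 and 558 RPM in the same order. The xylem markers CESA4, CESA7, CESA8 and LAC17 reached at most 166, 68.7, 57.6 and 73.4 RPM in any library. Without the mature F. brownii library the rule gave 74 loci, of which 64 were members. In whole leaves, fewer cells of a type and less RNA per cell cannot be told apart, and the part that tissue makeup plays in the values was not tested.

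The members took 7.88 to 14.8% of the assigned reads of a clade A library (median 11.2%). In the other species they took 0.677 to 2.79% (median 0.919%), with the highest values in the mature and juvenile F. brownii libraries and in mature F. pubescens leaves. All 73 are nuclear loci. The gap between the lowest clade A species and the highest other species ran from 0.52 to 3.15, with a median of 0.92 and with 35 members above 1. Just inside the threshold lay AT4G15930 (0.52), FSD2 (0.52) and AT4G32400 (0.52). Just outside it lay PNSL3 (0.49), a lumenal subunit of the NDH complex, AT1G50420 (0.49) and AT2G41120 (0.49). In 59 members every clade A library was above every other library, and in 14 the libraries overlapped. Such a complete separation with clade A on top was seen in 0.743% of the 11704 loci, and it follows largely from the rule. In juvenile leaves alone the 4 clade A libraries were above the 6 others in 69 members (2.75% of all loci). The 4 exceptions were AT3G08630, AT4G03100, AT5G27390 and FSD2. In mature leaves alone the 3 clade A libraries were above the 5 others in 72 members (4.35% of all loci), the exception being AT5G12470.

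**Figure D1:**
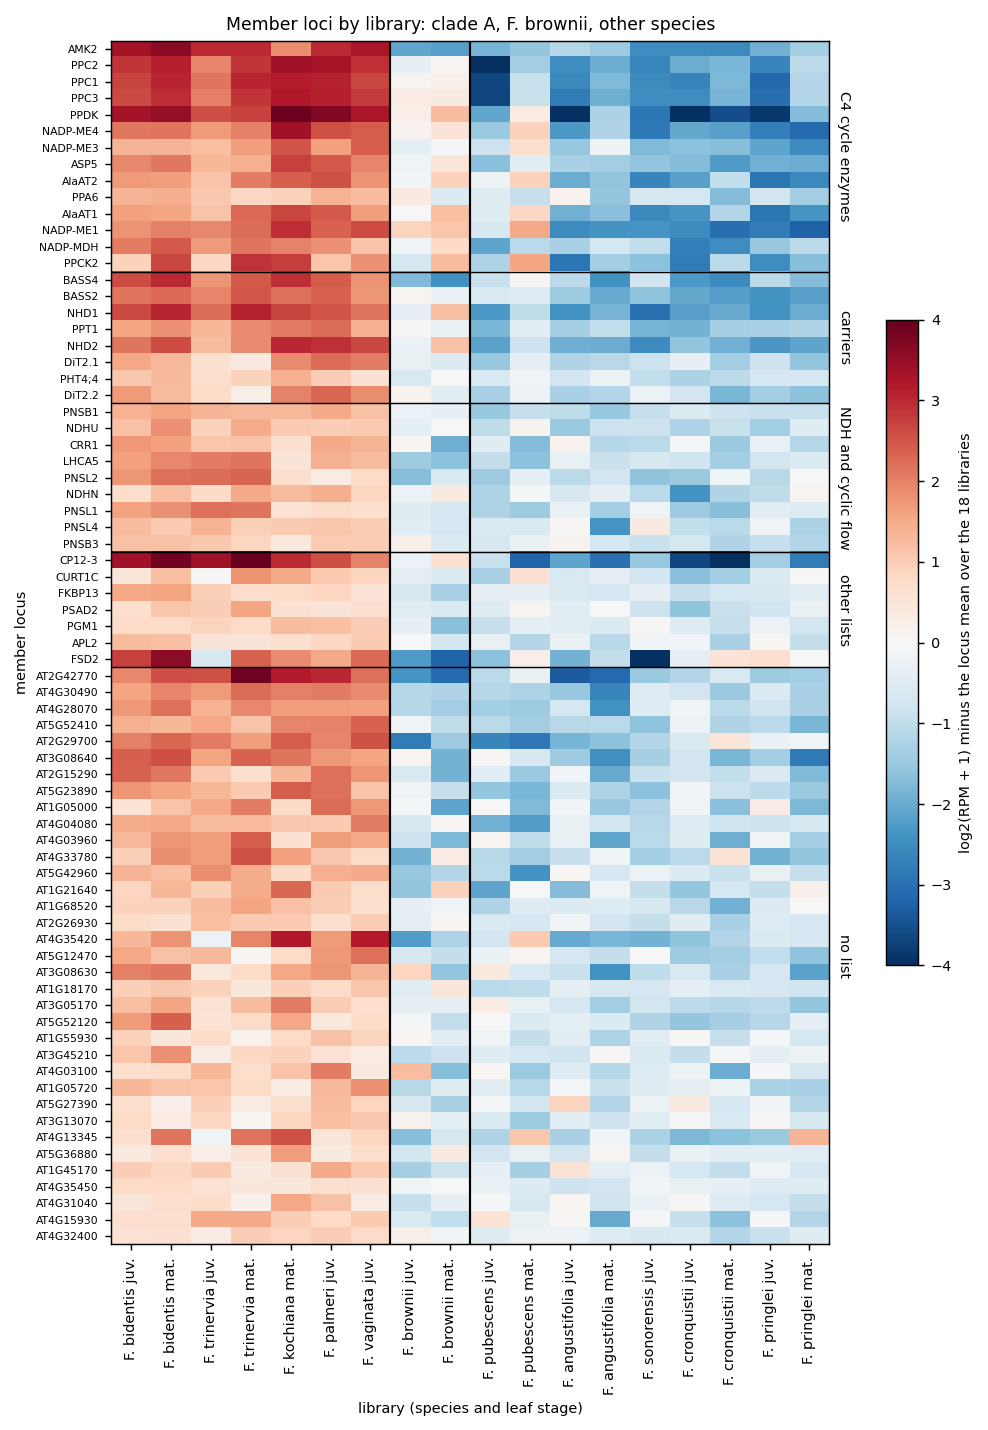
Level of each of the 73 members in each of the 18 libraries, as log2(RPM + 1) minus the mean of the locus, with colours ending at 4 in either direction. Vertical lines separate the 7 clade A libraries, the 2 of F. brownii and the 9 of the other species, and horizontal lines separate the groups of loci by list. The clade A block is above the locus mean almost throughout, and the F. brownii columns are palest in the C4 cycle enzymes and carriers.

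Of the 73 members, 38 stood on 1 of 28 gene lists covering 738 Arabidopsis loci, and 35 stood on none. The C4 cycle list gave 14 of its 34 loci, the organelle carriers 8 of 33, and the list of cyclic electron flow and the NDH complex 9 of 38, each counted among loci that averaged 5 RPM or more. Photosystems and antenna gave 3 of 83, starch metabolism 2 of 32, the Calvin-Benson cycle 1 of 28 and redox proteins 1 of 20. The rule took 0.624% of all 11704 loci. No member came from the other 21 lists, which include photorespiration (24 loci), nitrogen assimilation (16), sucrose and sugar transport (33), the malate dehydrogenases other than the chloroplast NADP enzyme (8) and chlorophyll metabolism (32). These counts describe the 73 loci, and the lists were drawn up with results of these data known. Related loci may share the reads of a single Flaveria gene. That holds for PEP carboxylase, NADP-malic enzyme, alanine aminotransferase (AlaAT), the NHD antiporters and the DiT2 transporters. Here and below each is counted as a separate locus. RPM is not divided by transcript length, so levels are compared between libraries and not between loci.

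PEP carboxylase carries out the first fixation of the cycle, and its loci PPC1, PPC2 and PPC3 were all members. PPC1 (AT1G53310) ran at 11133 to 22289 RPM (median 20856) in clade A. It was at 2901 and 2701 RPM in mature and juvenile F. brownii, and at 198 to 1366 RPM (median 426) in the other 9 libraries. The F. brownii values lay above all 9 of those and below all 7 of clade A. PPC2 (AT2G42600) was at 4498 to 12136 RPM (median 8667) in clade A, against 1211 and 909 RPM in mature and juvenile F. brownii and 63.8 to 561 RPM (median 289.7) in the rest. PPC3 (AT3G14940) reached 8321 to 19153 RPM (median 14802) in clade A, against 2665 and 2591 RPM in mature and juvenile F. brownii and 159 to 1115 RPM (median 371) in the rest. The 3 loci kept nearly the same profile over the 18 libraries, with Pearson correlations of log2 values of 0.992 to 0.999. Flaveria reads of a single gene could have been assigned to several of these Arabidopsis loci, so the 3 are uncertain as separate measurements. PPCK2, a kinase that phosphorylates PEP carboxylase, was at 29.0 to 125 RPM (median 59.8) in clade A, against 40.1 and 9.58 RPM in mature and juvenile F. brownii and 1.25 to 50.4 RPM (median 4.51) in the other 9. Its groups overlapped, since mature F. pubescens leaves at 50.4 RPM exceeded juvenile leaves of F. bidentis at 31.4, of F. trinervia at 29.0 and of F. palmeri at 35.7 RPM.

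PPDK (AT4G15530), pyruvate orthophosphate dikinase, regenerates PEP from pyruvate. It ran at 14837 to 37262 RPM (median 24709) in clade A, against 5763 and 2978 RPM in mature and juvenile F. brownii and 65.0 to 3109 RPM (median 328) in the other 9 libraries. Mature F. pubescens leaves held the highest of those 9, above juvenile F. brownii. The reaction of this enzyme leaves AMP and pyrophosphate, and a plastid enzyme for each was a member. AMK2 (AT5G47840), an adenylate kinase that recycles AMP, had the widest gap of all members (3.15). Its levels were 747 to 2515 RPM (median 1630.2) in clade A, 45.2 and 48.1 RPM in mature and juvenile F. brownii and 34.3 to 93.1 RPM (median 55.5) in the rest, so F. brownii lay among the C3 and C3-C4 species. PPA6 (AT5G09650), a soluble pyrophosphatase, was at 1528 to 2323 RPM (median 1989) in clade A, against 583 and 1099.9 RPM in mature and juvenile F. brownii and 254 to 936 RPM (median 514) in the rest. RP1 and RP2, related to the regulatory protein that switches the dikinase on and off, had gaps of 0.35 and 0.21 and missed the threshold, with F. brownii as the highest other species for both.

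The enzymes that make and split C4 acids followed. NADP-MDH (AT5G58330), which reduces oxaloacetate to malate in the chloroplast, was at 2938 to 7307 RPM (median 5260.3) in clade A, against 2301 and 1196 RPM in mature and juvenile F. brownii and 196 to 813 RPM (median 543) in the other 9. NADP-ME4 (AT1G79750), the chloroplast malic enzyme of Arabidopsis, was at 2925 to 9168 RPM (median 3971) in clade A, against 1264 and 988 RPM in mature and juvenile F. brownii and 104 to 1678 RPM (median 198) in the rest. NADP-ME1, a cytosolic form in Arabidopsis, was at 3006 to 6685 RPM (median 4011) in clade A, against 1837 and 1587 RPM in mature and juvenile F. brownii and 90.9 to 2470.1 RPM (median 150.4) in the rest. For both malic enzymes mature F. pubescens was the highest of those 9 and lay above both F. brownii libraries. NADP-ME3 was at 415 to 1026 RPM (median 561) in clade A, against 169 and 139 RPM in mature and juvenile F. brownii and 29.9 to 279 RPM (median 56.5) in the rest. The 3 malic enzyme loci correlated at 0.944 to 0.981, and reads may be shared between them. NADP-ME2, the remaining cytosolic form, had a gap of -0.23 and was no member.

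Aminotransferases interconvert aspartate, alanine and their keto acids, which also move between the cell types. ASP5, a plastid aspartate aminotransferase, was at 885 to 2337 RPM (median 1352) in clade A, against 492 and 315 RPM in mature and juvenile F. brownii and 72.6 to 264 RPM (median 109.9) in the rest. Its groups did not overlap, and both F. brownii libraries lay above the other 9. AlaAT1 was at 666 to 1906 RPM (median 949) in clade A, against 697 and 299 RPM in mature and juvenile F. brownii and 38.4 to 529 RPM (median 78.6) in the rest. Mature F. brownii at 697 RPM was just above juvenile F. trinervia at 666 RPM, so these groups overlapped. AlaAT2 showed the same profile (r = 0.996) at 792 to 2106 RPM (median 1255) in clade A, against 679.7 and 333 RPM in mature and juvenile F. brownii and 45.8 to 674 RPM (median 88.5) in the rest. The 20 loci of the C4 cycle list that were no members include CA1 to CA6, carbonic anhydrases, with gaps of -0.66 to -2.31, the PEP carboxykinases PCK1 (-1.47) and PCK2 (-1.29) and the NAD-malic enzymes NAD-ME1 (-1.39) and NAD-ME2 (-2.34).

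**Figure D2:**
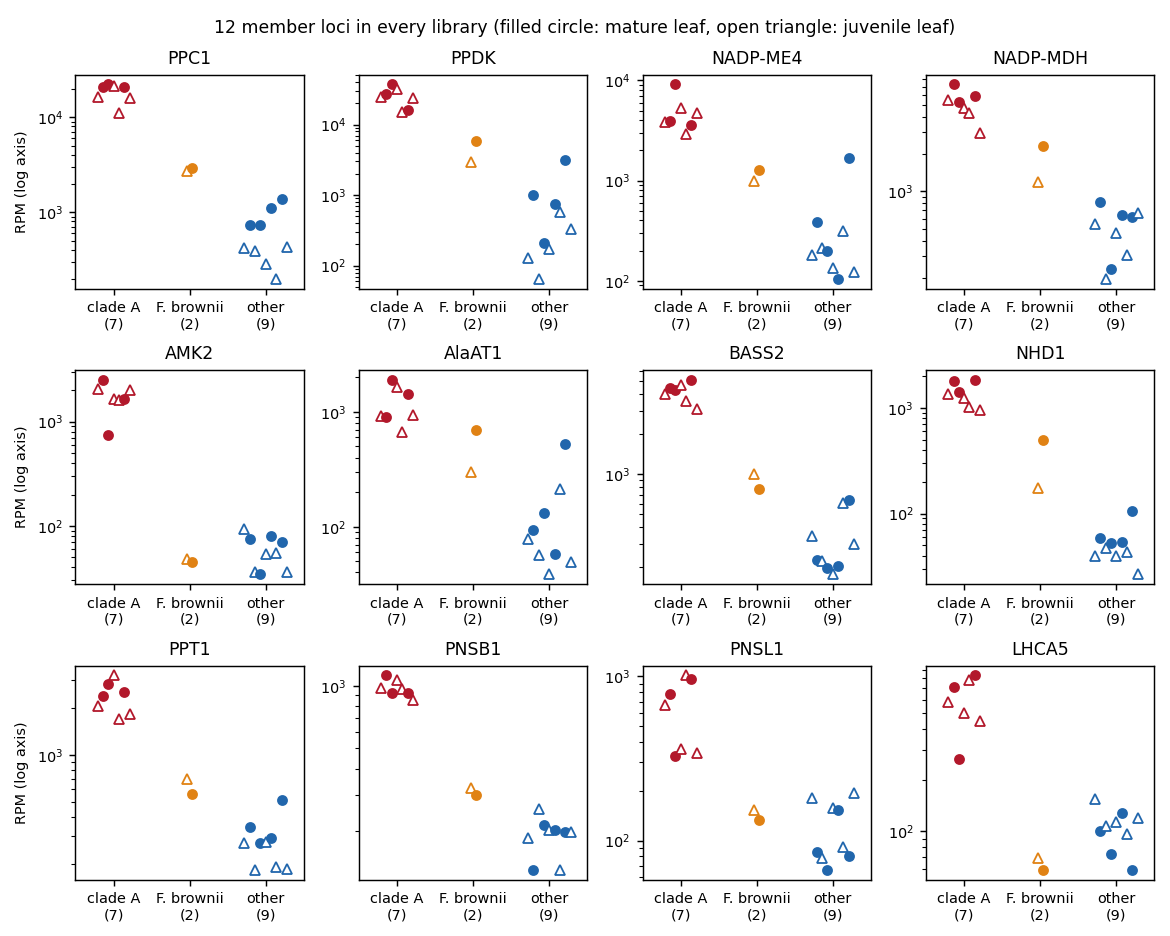
RPM on a log axis for 12 members in every library, with clade A (7 libraries) at the left, F. brownii (2) in the middle and the other 9 libraries at the right. Filled circles are mature and open triangles juvenile leaves. F. brownii lies between the other groups for PPC1, NADP-MDH, NHD1 and PNSB1, and within or below the other 9 for AMK2 and LHCA5.

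Among the carriers, BASS2 (AT2G26900), a sodium-dependent pyruvate transporter of the chloroplast envelope, was at 3108 to 5139.9 RPM (median 4280.5) in clade A. It was at 775 and 1004 RPM in mature and juvenile F. brownii and at 177 to 641 RPM (median 226) in the other 9 libraries, with no overlap between the 3 groups. The carrier thus stood highest in clade A and second in F. brownii. NHD1 (AT3G19490), a sodium-proton antiporter that works beside this transporter, was at 965 to 1849 RPM (median 1344) in clade A, against 502 and 174 RPM in mature and juvenile F. brownii and 26.5 to 107 RPM (median 47.0) in the rest. The clade A median was 25.4 times the median of all 11 other libraries, and mature F. brownii held more than juvenile. NHD2 followed the same profile (r = 0.980) at 102 to 339 RPM (median 258) in clade A, against 94.8 and 34.1 RPM in mature and juvenile F. brownii and 6.50 to 22.2 RPM (median 9.68) in the rest. PPT1 (AT5G33320), which exchanges PEP for phosphate, was at 1692 to 3230.2 RPM (median 2396) in clade A, against 559.9 and 698 RPM in mature and juvenile F. brownii and 182 to 509 RPM (median 272) in the rest. All 4 of these carriers had both F. brownii libraries between clade A and the other 9.

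BASS4 (AT3G56160), of the same family as BASS2, was at 567 to 1338 RPM (median 908) in clade A, but F. brownii at 30.3 and 48.1 RPM in mature and juvenile leaves lay within the 27.5 to 171 RPM (median 77.1) of the other 9. DiT2.1, a dicarboxylate transporter that exchanges glutamate and malate, was at 262 to 955 RPM (median 586) in clade A, against 139 and 164 RPM in mature and juvenile F. brownii and 66.9 to 160.4 RPM (median 92.8) in the rest. DiT2.2 correlated with it at 0.977 and was at 49.9 to 212 RPM (median 142) in clade A, against 31.6 and 47.3 RPM in mature and juvenile F. brownii and 11.4 to 36.2 RPM (median 16.8) in the rest. For both of these transporters F. trinervia, a C4 species, held the lowest clade A values. PHT4;4, a carrier known from Arabidopsis as an ascorbate transporter of the envelope, was at 272 to 478 RPM (median 356) in clade A, against 179.9 and 117 RPM in mature and juvenile F. brownii and 73.3 to 159 RPM (median 107) in the rest. Libraries did not overlap for these 4 loci either. DiT1, the partner oxoglutarate-malate translocator, and TPT, the triose phosphate translocator, stayed under the threshold with gaps of 0.03 and 0.25.

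The NDH members come from several modules of the complex. NDHN, a subunit of the stromal arm, was at 371 to 652 RPM (median 532) in clade A, against 294 and 195 RPM in mature and juvenile F. brownii and 43.0 to 246 RPM (median 111) in the other 9. NDHU, of the part that takes electrons from ferredoxin, was at 148 to 275 RPM (median 159) in clade A, against 76.5 and 59.4 RPM in mature and juvenile F. brownii and 26.9 to 85.6 RPM (median 41.1) in the rest. Of subcomplex B, PNSB1 (AT1G15980) was at 857 to 1123 RPM (median 966) in clade A, against 299 and 322 RPM in mature and juvenile F. brownii and 130.3 to 256 RPM (median 199) in the rest. Clade A values of PNSB1 stayed within a narrow band, and F. brownii was above the other 9. PNSB3 was at 329 to 552 RPM (median 499) in clade A, against 162 and 281 RPM in mature and juvenile F. brownii and 106 to 269.9 RPM (median 149) in the rest.

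Of the lumenal subcomplex, PNSL1 was at 326 to 1014 RPM (median 669) in clade A, against 134 and 154 RPM in mature and juvenile F. brownii and 66.2 to 193 RPM (median 91.8) in the rest. PNSL2 was at 70.9 to 288 RPM (median 194) in clade A, against 37.2 and 16.6 RPM in mature and juvenile F. brownii and 17.8 to 56.1 RPM (median 26.0) in the rest. PNSL4 was at 226 to 307 RPM (median 243) in clade A, against 71.8 and 87.3 RPM in mature and juvenile F. brownii and 21.8 to 149 RPM (median 75.9) in the rest. None of these 3 put both F. brownii libraries above the other 9. LHCA5, an antenna protein that links the NDH complex to photosystem I, was at 268 to 835 RPM (median 582) in clade A, against 58.9 and 69.0 RPM in mature and juvenile F. brownii and 59.2 to 154 RPM (median 107) in the rest. CRR1, needed to assemble the complex in Arabidopsis, was at 63.0 to 134 RPM (median 105) in clade A, against 9.67 and 41.9 RPM in mature and juvenile F. brownii and 11.5 to 44.4 RPM (median 18.4) in the rest. A further 8 nuclear NDH subunits were separated in the same direction by less than 0.5, namely PNSL3, PNSB4 (0.45), NDHL (0.39), NDHM (0.37), NDHO (0.30), PNSB2 (0.25), NDHT (0.09) and PNSB5 (0.01). The subunits NDHS and PNSL5 had gaps of -0.34 and -1.10, so for them clade A was not separated from the other species. PGR5 and PGRL1A, which serve the other route of cyclic flow, had gaps of -0.51 and -0.14.

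CP12-3 (AT1G76560) is a small chloroplast protein of the family that ties glyceraldehyde phosphate dehydrogenase to phosphoribulokinase. It had the highest ratio of the clade A median to the median of all 11 other libraries, F. brownii included (47.8). Its levels were 258 to 1104 RPM (median 677) in clade A, 102 and 54.2 RPM in mature and juvenile F. brownii and 2.94 to 34.1 RPM (median 8.36) in the rest. Within clade A it was lowest in F. vaginata and F. palmeri, and no library of clade A came near the other species. PSAD2, the subunit of photosystem I that docks ferredoxin, was at 3086 to 6490.04 RPM (median 3545) in clade A, against 1439 and 1604 RPM in mature and juvenile F. brownii and 705 to 2316 RPM (median 1535) in the rest. CURT1C, which bends thylakoid membranes, was at 364 to 1250.2 RPM (median 739) in clade A, against 246 and 276 RPM in mature and juvenile F. brownii and 110.4 to 543 RPM (median 236) in the rest, and its libraries overlapped. FKBP13, an immunophilin of the thylakoid lumen, was at 97.0 to 205 RPM (median 123) in clade A, against 26.9 and 43.4 RPM in mature and juvenile F. brownii and 35.6 to 54.1 RPM (median 45.0) in the rest.

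The starch members were PGM1, the plastid phosphoglucomutase, and APL2, a large subunit of ADP-glucose pyrophosphorylase. PGM1 was at 462 to 662 RPM (median 506) in clade A, against 85.3 and 215 RPM in mature and juvenile F. brownii and 143 to 283 RPM (median 189.8) in the rest. APL2 was at 98.9 to 166 RPM (median 122) in clade A, against 40.9 and 70.1 RPM in mature and juvenile F. brownii and 27.3 to 71.3 RPM (median 55.7) in the rest. Neither overlapped. FSD2, a chloroplast iron superoxide dismutase, varied widely within both groups. It was at 88.7 to 1683 RPM (median 666) in clade A, against 14.1 and 27.8 RPM in mature and juvenile F. brownii and 4.11 to 217 RPM (median 108) in the rest. Juvenile F. trinervia at 88.7 RPM lay below juvenile F. pringlei at 217 RPM, and the mature leaves of the same species held 710.5 RPM.

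The 35 members on no list are given by their Arabidopsis identifiers, since the table gives no names for them. Their clade A medians ran from 8.74 to 1488 RPM and were under 100 RPM in 22 of them. The widest gaps were those of AT2G42770 (2.88), AT4G30490 (2.28), AT4G28070 (2.15), AT5G52410 (1.94) and AT2G29700 (1.93), all among the 10 widest of the 73. AT2G42770 was at 176 to 689 RPM (median 277) in clade A, against 4.48 and 8.13 RPM in mature and juvenile F. brownii and 3.58 to 37.3 RPM (median 17.3) in the other 9. AT4G30490 was at 35.4 to 56.0 RPM (median 46.3) in clade A, against 4.33 and 4.52 RPM in mature and juvenile F. brownii and 0.968 to 7.56 RPM (median 4.19) in the rest. F. brownii thus lay among the other species for both. AT2G29700 was at 25.2 to 47.2 RPM (median 33.6) in clade A, against 2.02 and 0.181 RPM in mature and juvenile F. brownii and 0.14 to 10.5 RPM (median 2.65) in the rest, and juvenile F. brownii and both F. pubescens libraries were under the worth of 3 reads. AT4G35420, at 3.05 to 42.4 RPM (median 15.3) in clade A, was the sole member with a library at 0, which was juvenile F. brownii. The neighbours by identifier AT3G08630 and AT3G08640 correlated at 0.954 over the 18 libraries.

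The 14 members with overlapping libraries were CURT1C, AlaAT1, PPCK2, FSD2 and 10 loci on no list. In AT1G21640 the overlap came from mature F. brownii at 216 RPM, where clade A was at 183 to 562 RPM (median 237) and the 9 C3 and C3-C4 libraries at 25.3 to 129 RPM (median 57.6). In AT3G08630 and AT4G03100 it came from juvenile F. brownii at 93.2 and 49.1 RPM, while the mature leaves of that species held 16.7 and 5.63 RPM. Clade A was at 68.9 to 227 RPM (median 153) for AT3G08630 and at 26.5 to 87.4 RPM (median 34.6) for AT4G03100. Juvenile F. brownii thus exceeded both F. trinervia libraries for AT3G08630 and 5 of the 7 clade A libraries for AT4G03100. For AT4G13345 mature leaves of F. pringlei (117 RPM) and F. pubescens (96.5 RPM) exceeded the juvenile leaves of all 4 clade A species sampled at that stage, the highest being F. vaginata (83.2 RPM), and mature F. angustifolia (41.6 RPM) exceeded juvenile F. trinervia. The 3 mature clade A libraries held 202, 208 and 269 RPM. AT5G12470, the no-list locus with the highest clade A median, was at 642 to 2799.8 RPM (median 1488) in clade A, against 316 and 391 RPM in mature and juvenile F. brownii and 197 to 659 RPM (median 317) in the rest. Its overlap was slight, with mature F. pubescens at 659 RPM and mature F. trinervia at 642 RPM. AT4G35450 and AT1G18170 were the no-list loci next in level, without overlap. AT4G35450 was at 604 to 764 RPM (median 671) in clade A, against 436 and 397 RPM in mature and juvenile F. brownii and 247 to 411 RPM (median 318) in the rest, and AT1G18170 at 353 to 554 RPM (median 491) in clade A, against 346 and 189 RPM in mature and juvenile F. brownii and 120.1 to 197 RPM (median 161) in the rest.

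Within clade A the species differed in which loci they carried highest. F. kochiana was the highest of the 5 species for 22 members, F. bidentis for 17, F. palmeri for 15, F. trinervia for 13 and F. vaginata for 6. F. vaginata was the lowest for 23 and F. trinervia for 21. The juvenile F. trinervia library alone was the lowest of the 7 clade A libraries for 26 members, and the members' share of reads was lowest there. How often these species and libraries were highest or lowest among all loci was not counted, so the numbers are a description. The rule sets a lower bound for the 5 species and not their order. F. kochiana was sampled in mature leaves only, and F. palmeri and F. vaginata in juvenile leaves only. Species and leaf stage can therefore not be told apart in this order.

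The C4 species of clade A were compared with its C4-like species in 1 fit over the 18 libraries that also held leaf stage and, as a random effect, species (limma on log2(RPM + 1), Benjamini-Hochberg adjustment). PNSL1 averaged 679.9 ± 335 RPM in the C4 species (SD, n = 3) and 350.3 ± 15.4 RPM in the C4-like species (SD, n = 2). It was at 969 and 1014 RPM in mature and juvenile F. trinervia and at 776 and 669 RPM in F. bidentis, but at 326 RPM in the third C4 species, F. kochiana. The C4-like species held 361 RPM in F. palmeri and 339 RPM in F. vaginata, so F. kochiana lay with them. PNSL2 was alike in this, with 288, 267, 263 and 194 RPM in F. trinervia and F. bidentis and 88.4 RPM in F. kochiana, against 70.9 RPM in F. palmeri and 96.0 RPM in F. vaginata. The limma difference was 1.12 ± 0.48 for PNSL1 (SE, adjusted p = 1.00) and 0.75 ± 0.51 for PNSL2 (adjusted p = 1.00).

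None of the 73 members passed an adjusted p of 0.05 between C4 and C4-like species (0.0% of 14479 loci in either direction), and edgeR's quasi-likelihood test on the recovered reads also called none of them. At an unadjusted p under 0.05 limma gave 1 member, PNSL1 (1.37%, against 3.74% of all loci), and edgeR gave 4 (5.48%, against 7.27%). The rule set a lower bound for every clade A species, which loci at large did not have. These shares are therefore a description. The differences ran from -1.32 ± 0.77 for AT4G35420 to 1.51 ± 0.74 for CP12-3, and 36 of 73 were positive. CP12-3 averaged 741 ± 198 RPM in the C4 species (SD, n = 3) and 325 ± 93.5 RPM in the C4-like species (n = 2), with an adjusted limma p of 1.00. PPDK had a difference of -1.17 ± 0.77 and PPC1 of -0.71 ± 0.55 after adjustment for stage, neither past the threshold. Their mean RPM were close, at 26311 in the C4 and 27861 in the C4-like species for PPDK, and 18994 and 18528 for PPC1. The C4-like species had juvenile leaves only, and the fit used 1 stage change for all species. PPDK rose with leaf age by 0.16 and 0.13 in F. bidentis and F. trinervia, but by 0.95 to 2.95 in the other paired species. Its adjusted difference thus depends on that shared stage change. With 3 and 2 species the median SE of a member's difference was 0.48.

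F. brownii is the C4-like species outside clade A, and the rule kept it below the clade A species at every member. It was nevertheless the highest of the 6 other species for 36 of the 73 members (49.3%, against 23.6% of the 11704 loci), followed by F. pubescens (11) and F. sonorensis (9). Its position was expressed as a percentage of the distance in mean log2(RPM + 1) between the C3 species, set at 0, and the clade A species, set at 100. The median position was 22.1%, with 13 members past 50%, 38 between 0 and 50% and 22 below the C3 mean. C4 cycle enzymes had a median position of 54.7% over 14 members and carriers 41.0% over 8. NDH and cyclic flow members stood at 19.9% over 9, and loci on no list at 12.6% over 35. These medians describe the members and carry no test. Each position averages both F. brownii libraries, of which the mature one stood apart in its senescence, xylem and companion cell markers.

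The furthest along were NADP-ME1 at 73.6%, AlaAT1 at 66.5%, PPDK at 62.2%, AlaAT2 at 61.8% and NADP-MDH at 60.2%. PPC1 stood at 46.4% and PPC3 at 49.6%, and the carriers NHD1 and NHD2 at 55.1% and 54.2%. At the other end AMK2 stood at -0.894%, BASS4 at -3.84%, PNSL2 at -23.3%, LHCA5 at -30.2%, AT2G29700 at -84.9% and FSD2 at -172%. By this position F. brownii lay between the C3 and clade A means for most C4 enzyme and carrier members, while AMK2 and BASS4 were at the level of the C3 species. The rule itself kept F. brownii below clade A. Both F. brownii libraries were above all 9 C3 and C3-C4 libraries for 12 members (16.4%, against 3.88% of the 11704 loci), 1 of them for 21 (28.8%, against 25.0%), and neither for 40. In the same order the counts were 5, 4 and 5 for the C4 cycle members and 4, 3 and 1 for the carriers. The rule used these values, so the shares are given as a description. With F. brownii left out of the rule 87 loci qualified. All 73 members were among them by construction, since fewer other species can only widen a gap. The 14 gained included RP1, RP2, PNSB2, PNSB4 and NDHM. With F. brownii required to be high alongside clade A, 25 loci qualified, of which 15 were members.

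**Figure D3:**
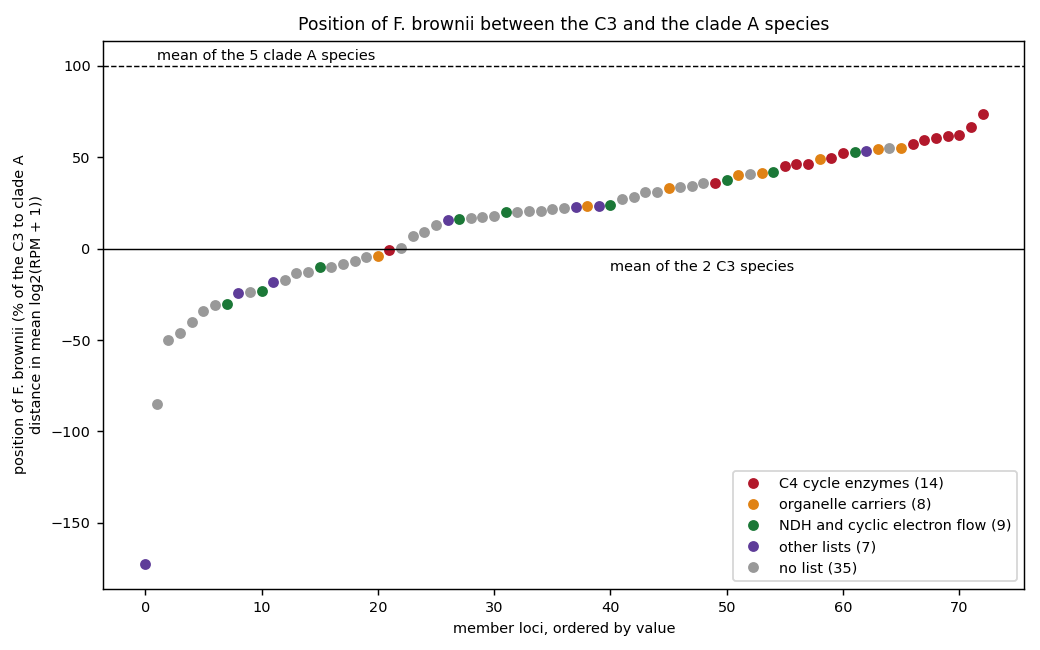
Position of F. brownii between the mean of the 2 C3 species (0%) and the mean of the 5 clade A species (100%) in mean log2(RPM + 1), with 1 point for each of the 73 members in order of value. Colours give the list. C4 cycle enzymes gather at the upper right, up to 73.6%, and FSD2 is the lowest point.

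Among the remaining species, the C3-C4 intermediates were set against the C3 species in the same fit. PPDK averaged 915 ± 815 RPM in the intermediates (SD, n = 3) and 296 ± 225 RPM in the C3 species (SD, n = 2). NADP-ME1 averaged 611 ± 779.8 RPM in the intermediates and 117 ± 14.5 RPM in both C3 species. The SDs of the C3-C4 species were about as wide as their means, because F. pubescens stood above the other two. Mature F. pubescens was the highest of the 9 libraries for 23 members, with 3109 RPM of PPDK, 2470.1 RPM of NADP-ME1 and 674 RPM of AlaAT2. Juvenile F. pubescens held 581, 552 and 311 RPM of the same loci. How often the mature library was the highest of the 9 among all loci was not counted, so the 23 is a description.

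No member passed an adjusted p of 0.05 between C3-C4 and C3 species with limma (0.0% of 14479 loci in either direction), nor with edgeR, which called 7 loci higher and 9 lower, none of them members. At an unadjusted p under 0.05 limma gave 9 members (12.3%, against 5.93% of all loci) and edgeR 15 (20.5%, against 13.5%). With 1 value per species limma gave 6 (8.22%, against 4.44%). The rule set an upper bound for every species outside clade A, which loci at large did not have. All shares in this comparison are therefore a description. Of the 9 limma members, 7 were higher in the C3-C4 species, given as log2 differences with SE. They were PPDK (1.69 ± 0.68), NADP-ME1 (1.57 ± 0.68), NADP-ME3 (1.24 ± 0.48), PPCK2 (1.09 ± 0.52), AT5G12470 (0.96 ± 0.36), BASS2 (0.93 ± 0.35) and NADP-MDH (0.81 ± 0.38). The 2 that were lower were FSD2 (-2.14 ± 0.91) and AT2G29700 (-1.78 ± 0.47). Their adjusted p ran from 0.494 to 0.836 with limma. Without F. pubescens 4 members were under an unadjusted 0.05 (5.48%, against 5.14% of all loci), so their share was then near that of loci at large. Without F. cronquistii it was 5 members (6.85%, against 3.97%). The median difference of the 34 C4 cycle loci was 0.70, against 0.15 for the 73 members and -0.06 for all loci. That of the members was 0.02 without F. cronquistii and 0.26 without F. pringlei.

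Leaf age was a separate contrast that the rule averaged over. The 7 species with both stages were used to set mature against juvenile leaves, with species as a block (limma, adjusted p under 0.05). PPCK2 rose most of the members. It was at 108 RPM in mature against 31.4 RPM in juvenile F. bidentis, at 125 against 29.0 RPM in F. trinervia, at 40.1 against 9.58 RPM in F. brownii and at 50.4 against 6.30 RPM in F. pubescens. The change was 1.81 ± 0.22 on the log2 scale (SE, adjusted p = 5.08e-05) and was positive in 7 of 7 species. PPDK rose by 1.49 ± 0.32 (adjusted p = 0.00237), also in 7 of 7 species. Its rise was small in F. bidentis (0.16) and F. trinervia (0.13) and large in F. pubescens (2.42) and F. angustifolia (2.95).

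In all 18 members were higher in mature leaves (24.7%, against 12.7% of the 14500 loci tested) and 14 lower (19.2%, against 37.6%). At an unadjusted p under 0.05 the members changed about as often as loci at large (41 members or 56.2%, against 56.8%). The median change of all loci was -0.31 with RPM as deposited, and that of the 73 members -0.02, which is 0.29 above it. With TMM scaling the median of all loci was 0.0008 and 30 members were higher (23.2% of loci) and 1 lower (21.8%). All 18 higher calls held with TMM and with edgeR. Of the 14 lower calls only AT5G27390 held with either, and the other 13 were called only on RPM as deposited or with changes other than the scaling. Of the 34 C4 cycle loci 12 were higher and 4 lower, of 34 carriers 5 were higher and 8 lower, and of 40 loci of cyclic flow and the NDH complex 15 were higher and 6 lower. The 5 senescence markers summed to 31.9 to 929 RPM in mature leaves, against 10.2 to 54.0 RPM in juvenile leaves, and the 9 stomatal and epidermal markers to 26.1 to 50.5 RPM in mature leaves, against 136 to 602 RPM in juvenile leaves. Of the stomatal markers SPCH was at 0 in 6 libraries and MUTE in 7. The part of these tissues in the stage changes was not tested. Without F. brownii 22 members were higher (30.1%, against 11.0% of loci) and 14 lower (19.2%, against 39.0%).

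The listed members that rose in mature leaves were, beside PPCK2 and PPDK, the PEP carboxylases PPC1 (1.11 ± 0.28), PPC3 (1.04 ± 0.28) and PPC2 (0.95 ± 0.28), the aminotransferases AlaAT1 (0.81 ± 0.19) and AlaAT2 (0.71 ± 0.18) and NADP-MDH (0.59 ± 0.15). They also included NHD1 (0.75 ± 0.19) and the NDH subunits NDHN (0.80 ± 0.16), PNSL2 (0.79 ± 0.19) and NDHU (0.65 ± 0.15). CURT1C (0.76 ± 0.24) and PSAD2 (0.45 ± 0.16) completed them. CURT1C lost its call without F. trinervia or without F. pubescens (adjusted limma p up to 0.0650 over the 7 omissions), and PSAD2 lost it in 6 of the 7 omissions, keeping it without F. brownii. Of the loci on no list, AT4G13345 rose by 1.63 ± 0.28 and AT1G21640 by 1.31 ± 0.24, each in 7 of 7 species. The malic enzymes, ASP5, AMK2, BASS2 and PPT1 passed the test in neither direction on RPM as deposited. TMM scaling called 30 members higher (41.1%, against 23.2% of loci), so members beyond the 18 passed there.

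AT4G03100 had the largest fall (-1.15 ± 0.30, adjusted p = 0.00712), lower in mature leaves of 6 of 7 species, followed by AT1G05000 (-1.11 ± 0.34), CRR1 (-0.98 ± 0.24), AT3G08630 (-0.95 ± 0.29) and AT5G27390 (-0.93 ± 0.21). AT5G27390 was lower in 7 of 7 species. AT1G05000 lost its call without F. pringlei, where limma gave an adjusted p of 0.0555. Of the listed members PPA6 fell by 0.69 and APL2 by 0.68 on the log2 scale. With TMM scaling PPA6 (-0.35), APL2 (-0.34) and CRR1 (-0.65) lost their calls, with limma adjusted p-values of 0.214, 0.157 and 0.058 in the same order. CRR1, PPA6 and APL2 were each lower in 6 of 7 species, and CRR1 held 9.67 RPM in mature against 41.9 RPM in juvenile F. brownii.

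**Figure D4:**
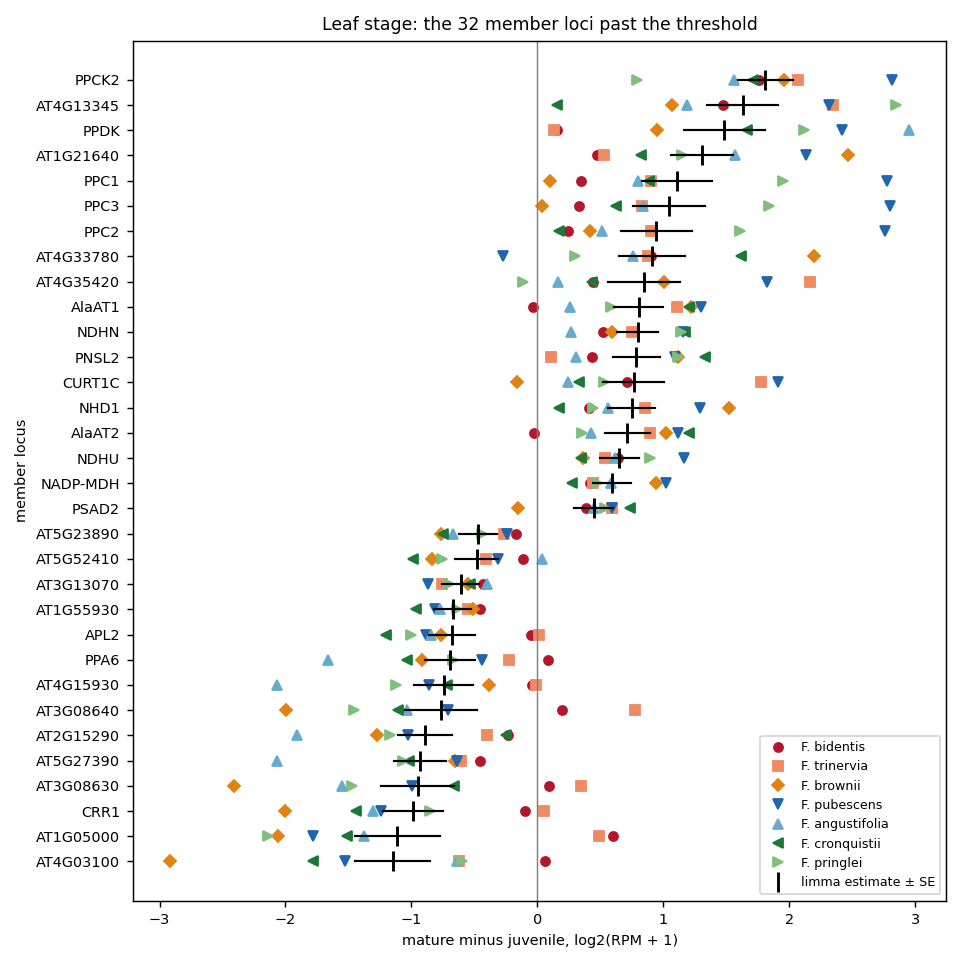
Mature minus juvenile difference in log2(RPM + 1) of the 32 members past the threshold, with 1 symbol for each of the 7 paired species and the limma estimate with its SE in black. At the bottom the symbols of F. bidentis and F. trinervia lie to the right of the others for CRR1, AT1G05000, AT3G08630 and AT3G08640. For PPDK they lie to the left.

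Whether the stage change itself differed between clade A and the other species was tested on the differences of F. bidentis and F. trinervia against those of the 5 other paired species. AT1G05000 changed by 0.60 and 0.49 in F. bidentis and F. trinervia. In the others it changed by -1.38 to -2.14, with F. brownii at -2.06. Both clade A species were thus higher in mature leaves and all 5 others lower. That pattern was shared by 7 members, which is 9.59% against 0.683% of all loci, and the reverse pattern by 0 members against 0.959% of all loci. The other 6 were AT4G03960, AT3G08640, AT3G08630, AT4G28070, AT4G30490 and AT3G05170.

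The limma difference of stage changes was 2.32 ± 0.37 for AT1G05000 (SE, adjusted p = 0.144), 1.92 ± 0.39 for AT4G03960 (adjusted p = 0.181) and 1.75 ± 0.41 for AT3G08640 (adjusted p = 0.249). PPDK differed the other way, by -1.88 ± 0.48 (adjusted p = 0.29), with higher mature values in all 7 species. No locus passed the adjusted threshold (0.0% of 14500 in either direction with limma), so none of these differences between the groups is shown beyond the spread of species. At an unadjusted p under 0.05 there were 13 members (17.8%, against 7.9% of all loci), 11 with a positive difference. The comparison rests on 2 clade A species, and without F. bidentis or F. trinervia 7 members (9.59%, against 3.03% of all loci) and 6 members (8.22%, against 4.57%) were under that level.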

How the data were processed

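Leaf RNA of 11 Flaveria species was sequenced in 18 libraries, 10 juvenile and 8 mature. Another 3 samples, of out-group species, were not analysed here. The authors deposited RPM values, reads scaled to 1000000 per library, for 20551 Arabidopsis loci. The build was TAIR10, per the submitters' processing notes. How reads were aligned and counted, and what was done with reads matching several loci, is not given in the sources used here. All values (100%) were whole multiples of 1 read within 0.001 of a read, which gave read totals of 5.40 to 9.15 M (M, 1000000 reads) per library.

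Libraries were grouped by the species and stage of the labels. Photosynthetic type and clade are textbook knowledge and the selection rule, not labels. Tests used limma 3.58.1 in R 4.3.3 on log2(RPM + 1), with a mean trend, over all loci averaging 2 RPM or more in the fit. P-values are two-sided, with Benjamini-Hochberg adjustment over all loci and a threshold of 0.05. This scale understates changes of low loci. Stage was fitted in the 14 libraries of the 7 paired species with species as a block. Stages of 1 species deviated together (correlations of 0.441 to 0.718), and the labels' species names give the pairing. The difference of stage changes used 1 value per species. Type comparisons used all 18 libraries in 5 sets, with stage as covariate and species as random block (statmod 1.5.0, correlation 0.460), so they rest partly on libraries of 1 species. As alternatives, TMM scaling, edgeR 4.0.16 quasi-likelihood tests on the recovered reads, pseudocounts of 0.5 and 5 RPM, other filters, and omission of each species were run. The fits were also run on simulated data with an assumed spread between species, and no result here rests on that run. Counts and figures used Python 3.11.15, numpy 2.4.6, pandas 2.3.3 and matplotlib 3.10.9.

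The members, the gene lists and the tests were chosen with earlier results of these data known. Of 738 list loci 734 were in the table and 674 averaged 5 RPM or more. Named are the members on a list, the 10 with the widest gap, the 5 with the highest clade A mean, up to 5 called members per test and direction, and the 3 loci on either side of the threshold. Members without a call that are named beside a test, the members whose stage changes opposed each other and the list loci close to the threshold were chosen after their values were seen. Symbols are Arabidopsis nomenclature for list loci.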

Additional observations from a re-analysis of the deposited data

Results flagged for a closer look

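Of 194 groups of 4 to 7 values examined for a single value far from the others, 12 held one. Chance alone gives about 1 such group in 20, so a count of this size carries little weight. In 7 of the 12 the value belonged to the juvenile F. brownii library among the 6 juvenile libraries outside clade A. There the members' share of reads was 2.27%, where the other 5 lay at 0.677 to 0.919%. On the log2(RPM + 1) scale PPC1 was at 11.40 (others 7.64 to 8.74), PPC3 at 11.34 (7.33 to 8.54), NHD1 at 7.45 (4.78 to 5.59), PPT1 at 9.45 (7.52 to 8.12), ASP5 at 8.30 (6.56 to 7.16) and AT4G03100 at 5.65 (3.91 to 4.50). Mature F. brownii stood out among the 5 mature libraries outside clade A for CP12-3, at 6.68 (others 1.98 to 3.23).

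Low values made up the rest. AT1G05000 was at 3.16 in juvenile F. sonorensis, where the other 5 juvenile libraries lay at 4.17 to 4.68. PSAD2 was at 9.46 in juvenile F. cronquistii (others 10.25 to 10.65). Among the mature minus juvenile changes of the 7 paired species, PSAD2 changed by -0.16 in F. brownii (others 0.39 to 0.73) and AT5G27390 by -2.07 in F. angustifolia (others -1.07 to -0.45).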

How the results depend on the processing

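The count of member loci was 62 to 101 with a mean of at least 1 or 20 RPM, a pseudocount of 0.5 or 5 RPM, TMM scaling, juvenile libraries only or F. brownii left out. It was 213 with a gap of at least 0, 35 with a gap of at least 1, 164 in mature libraries only and 25 with F. brownii moved to the clade A side. Leaving out 1 of the 10 species other than F. brownii gave 78 to 97. Leaving out a species can only widen a gap, so members could be lost only through the filter on mean RPM. Those omissions and the one of the mature F. brownii library, which gave 74, were chosen after seeing the data. TMM scaling shared 69 of the 73 members, the mature libraries 63 and the juvenile libraries 59.

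For leaf stage, 18 members were called higher and 14 lower. TMM scaling called 30 higher (23.2% of loci) and 1 lower (21.8%), and edgeR 27 higher (22.5%) and 1 lower (21.1%). Omission of each species gave 15 to 22 higher (10.5 to 12.5% of loci) and 10 to 15 lower (30.8 to 39.0%). Without the replicate block of species 1 was higher (AT4G13345) and 1 lower (AT5G27390). Each is 1.37% of members, against 5.1% of loci higher and 21.4% lower. In that fit differences between species count as spread, and the members were chosen for such differences. The pairing by species comes from the labels. Pseudocounts and filters gave 17 or 18 higher (9.0 to 15.0% of loci) and 13 to 15 lower (29.2 to 39.2%). No named stage change reversed. The other 3 comparisons called 0 members in either direction under every alternative run (0 to 0 when species were left out). When an omission left 1 species in a set, that species was assumed to vary like the others.

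Depth of 5.40 to 9.15 M reads limits loci near the worth of 3 reads. The number of species, 7 in pairs and 2 or 3 in a type, limits the rest.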
